A study of Homo sapiens with 16 samples.

Results

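Gene expression was compared between 2 human B-cell lines labelled sensitive and 6 labelled insensitive, all kept without inhibitor. The sensitive lines were REC-1 and SP49, and the insensitive lines were JVM-2, JVM-13, Maver-1, Z-138, GRANTA-519 and HBL-2. The sensitivity is to "stn" and ibrutinib in the labels, and what "stn" stands for was not given in the sources used here. Ibrutinib blocks the kinase BTK, which acts below the B-cell receptor. Each culture held the solvent DMSO at 0.025% for 20 h, and 1 Affymetrix expression array was run per line, so that 8 of the 16 arrays of the study belong to this comparison. The other 8 arrays are of the same lines after 20 h with AFN700 at 5 uM, which inhibits IKKbeta, and served here only as a second array of each line. The medium was DMEM for GRANTA-519 and RPMI for the other 7. The line is the replicate, a line has no error of its own, and the sensitive group rests on 2 lines. As background, GRANTA-519, JVM-2 and JVM-13 carry Epstein-Barr virus, whose proteins can drive NF-kB and plasma cell programmes.

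The B-cell receptor signals through its CD79A and CD79B chains to the kinases LYN, SYK and BTK, then through PLCG2 and protein kinase C to the adaptor BCL10 and the protease MALT1, upstream of IKKbeta. IKKbeta releases the classical NF-kB factors, among them RELA and REL, by marking their inhibitor NFKBIA for destruction. The alternative pathway runs from receptors of the TNF family through TRAF3 and the kinase MAP3K14 to NFKB2 and RELB. Mantle cell lymphoma, the tumour that the study's text names for these lines, is defined by high cyclin D1 (CCND1) and usually by the transcription factor SOX11.

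The labels were first set against defining markers. All 6 measured B-cell markers (CD79A, CD79B, MS4A1, PAX5, CD22 and CD74) had intensities of 46.1 or more in every line, and their summed intensity was 11066 and 14350.0 in the sensitive lines, against 9217 to 13630 in the insensitive lines. CCND1 had an intensity of 1752 in REC-1 and 1827 in SP49, against 4.8 in JVM-13, 78.7 in JVM-2 and 394 to 2328.5 in the other 4 insensitive lines. SOX11 had 663 in REC-1 and 1697 in SP49, against 0.1 in JVM-2, 1.4 in JVM-13 and 584 to 2336 in the other 4. The low CCND1 and SOX11 values of JVM-2 and JVM-13 go against the mantle cell lymphoma label, and counts without these lines are given below. CD5, another marker of the disease, was between 0.6 and 9.6 in 7 lines and 71.0 in Maver-1.

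No difference in array quality was detected over the 8 lines. The actin 3'/5' ratio, which is high where RNA is degraded, averaged 3.89 in sensitive and 3.77 in insensitive lines (2-sided exact permutation p = 1.0 over 28 splits, smallest possible 0.0357). The GAPDH ratio averaged 2.37 in sensitive and 1.86 in insensitive lines (exact permutation p = 0.643), and without Maver-1, which had the highest ratios (10.3 for actin, 3.96 for GAPDH), its difference was 0.933 (exact permutation p = 0.0476, the smallest possible). The median log2 level of an array was 8.21 in REC-1 and 8.20 in SP49, against 7.54 in JVM-13 and 8.05 to 8.25 in the other 5 insensitive lines. Any part of these array properties in the gene differences was not tested.

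REC-1 and SP49 were each other's closest line by Pearson correlation across genes (r = 0.844). SP49 was as close to GRANTA-519, an insensitive line (r = 0.844). The 12 pairs of a sensitive with an insensitive line ranged from 0.702 to 0.844 (median 0.807), and the 15 pairs within the insensitive lines from 0.708 to 0.875 (median 0.811). JVM-2 and JVM-13 correlated at 0.84 with each other. The 2 sensitive lines were not alike in all respects: of 8906 genes with a group mean intensity above 100, 230 were at least 4-fold higher in REC-1 than in SP49 and 451 at least 4-fold higher in SP49 than in REC-1. Genes are not independent replicates, and the arrays share their platform and scaling, so these correlations are descriptions.

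**Figure D1:**
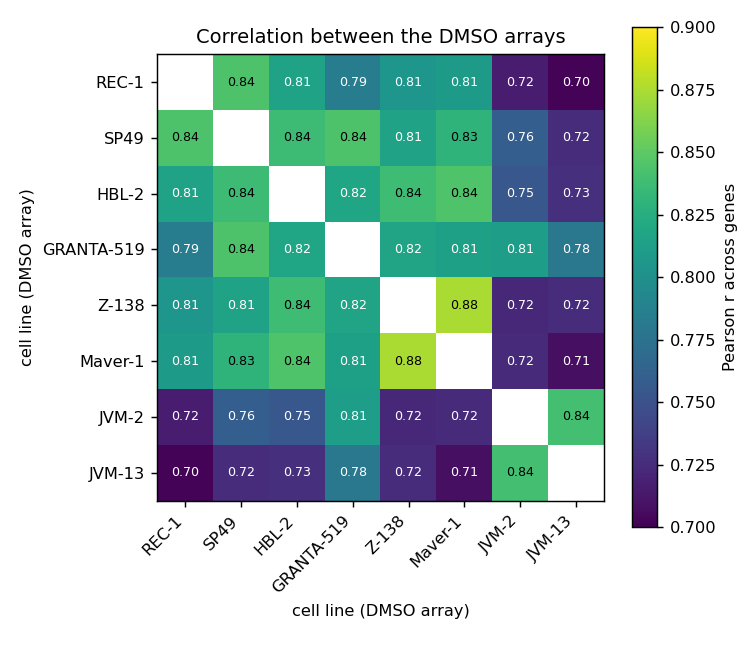
Pearson correlation across genes between the 8 DMSO arrays, one row and column per line with the sensitive lines first; the colour and the printed number are r. REC-1 and SP49 correlate at 0.84, and JVM-2 and JVM-13 have their lowest values with REC-1.

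A gene is called separated below where both sensitive lines lay above, or both lay below, all 6 insensitive lines and a group mean exceeded an intensity of 100. Of 8906 genes with such a mean, 554 were separated with the sensitive lines higher (6.22%) and 328 with the sensitive lines lower (3.68%), 882 in all (9.9%). The split depended on scaling. With each array centred on its median, 392 were higher (4.43%) and 457 lower (5.16%), which turned the share of higher genes to 46.2% from 62.8%, and quantile normalization gave 504 and 354 (58.7% higher). The median log2 difference of all genes tested was 0.08 as deposited, -0.07 centred and 0.02 after quantile normalization. For 36 genes (0.404%) the ranges were at least 2-fold apart with the sensitive lines higher, and for 23 (0.258%) with the sensitive lines lower. Without JVM-2 and JVM-13, 906 genes were higher and 770 lower of 8823 (10.3% and 8.73%). At the edge of the intensity rule, RNF43 (100.28) and ATP2B1-AS1 (100.8) lay just inside and TIGD7 (99.97) and ZNF763 (99.9) just outside, by the mean of their higher group.

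Limma, fitted to the 8 arrays over 11407 genes on the log2(intensity + 3.3) scale, called 1 gene at a Benjamini-Hochberg adjusted p under 0.05 (0.00877%). That gene was KCNJ16, which passed the filter on low values only through the 2 sensitive lines. With the filter on at least 6 arrays, limma called no gene (lowest adjusted p 0.283, 488 genes at an unadjusted p under 0.05). With no filter it called 5 of 19775 genes, KCNJ16 among them (adjusted p = 0.00929). Without adjustment, 629 genes (5.51%) had a p under 0.05, 293 of them higher in sensitive lines (2.57%) and 336 lower (2.95%). Every other gene below is therefore described by its values and ranges and did not pass the test over all genes.

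The AFN700 arrays repeat the lines with a separate array and treatment, not with other lines. The labels do not tell whether the 2 cultures of a line were grown independently. Of the 554 genes higher with DMSO, 230 (41.5%) were separated the same way with AFN700, and of the 328 lower, 118 (36.0%) were. Over all genes of that intensity the AFN700 arrays separated 417 (4.68%) higher and 301 (3.38%) lower. Of the genes at least 2-fold apart, 34 of 36 and 22 of 23 were separated again. Limma on the AFN700 arrays called 1 of 11560 genes (0.00865%), again KCNJ16, which was high there in the same 2 lines and near the floor of the array in the other 6, and 650 (5.62%) had an unadjusted p under 0.05 (2.59% higher and 3.04% lower).

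**Figure D2:**
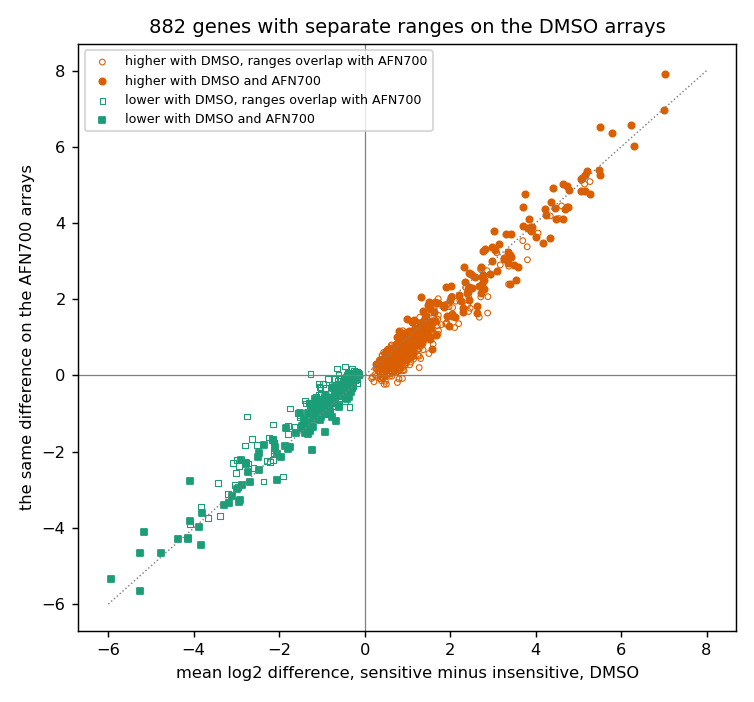
Mean log2 difference, sensitive minus insensitive lines, on the AFN700 arrays (vertical axis) against the DMSO arrays (horizontal axis) for the 882 separated genes. Filled symbols mark genes whose ranges were separate on both sets of arrays, open symbols those that overlapped with AFN700, and the dotted line marks equal differences; the genes at least 2-fold apart with DMSO were separated again in 34 of 36 and 22 of 23 cases.

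To show the regulatory sequence in front of genes that the results turn on, 250 bases upstream of the RefSeq transcript start (GRCh38.p14) are printed for the gene that limma called, KCNJ16 (chr17:70074975-70075224, plus strand), for a chemokine receptor and a cytokine higher in the sensitive lines, CXCR5 (chr11:118893142-118893391, plus strand) and LTB (chr6:31582426-31582675, minus strand), and for a germinal centre and a plasma cell gene lower in them, GCSAM (chr3:112133249-112133498, minus strand) and SDC1 (chr2:20225476-20225725, minus strand). Capitals mark matches, on either strand, to the kappaB consensus or to the STAT pattern TTCNNNGAA. The octamer ATGCAAAT, which OCT proteins bind, was searched in the same way.
KCNJ16: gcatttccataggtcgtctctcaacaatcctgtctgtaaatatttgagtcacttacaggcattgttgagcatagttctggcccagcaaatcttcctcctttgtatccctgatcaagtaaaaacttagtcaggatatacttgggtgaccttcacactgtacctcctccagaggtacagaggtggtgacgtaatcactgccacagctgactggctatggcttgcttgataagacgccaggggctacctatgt
CXCR5: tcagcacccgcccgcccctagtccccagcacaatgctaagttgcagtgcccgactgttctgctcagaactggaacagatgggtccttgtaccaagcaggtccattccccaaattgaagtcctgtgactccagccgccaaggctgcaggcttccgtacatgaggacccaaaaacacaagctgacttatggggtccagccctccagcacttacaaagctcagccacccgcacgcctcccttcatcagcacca
LTB: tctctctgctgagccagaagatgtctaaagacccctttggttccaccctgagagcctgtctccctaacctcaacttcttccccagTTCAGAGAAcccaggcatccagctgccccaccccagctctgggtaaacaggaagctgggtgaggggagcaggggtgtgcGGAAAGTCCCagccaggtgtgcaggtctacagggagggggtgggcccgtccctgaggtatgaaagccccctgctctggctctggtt
GCSAM: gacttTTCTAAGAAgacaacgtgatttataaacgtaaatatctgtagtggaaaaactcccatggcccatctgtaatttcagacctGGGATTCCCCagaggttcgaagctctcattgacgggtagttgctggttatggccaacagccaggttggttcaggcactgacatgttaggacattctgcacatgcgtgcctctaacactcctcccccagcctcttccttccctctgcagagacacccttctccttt
SDC1: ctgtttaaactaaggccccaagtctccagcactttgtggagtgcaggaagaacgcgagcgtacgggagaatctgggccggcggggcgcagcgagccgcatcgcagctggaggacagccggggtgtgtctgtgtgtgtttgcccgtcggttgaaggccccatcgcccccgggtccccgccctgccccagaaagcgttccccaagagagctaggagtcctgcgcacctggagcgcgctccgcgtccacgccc
The LTB window holds a kappaB match (GGAAAGTCCC) from -86 to -77 and a STAT match (TTCAGAGAA) from -165 to -157, counted from the transcript start. The GCSAM window, of a gene that was lower, holds the same 2 kinds of match, GGGATTCCCC from -165 to -156 and TTCTAAGAA from -245 to -237. The windows of KCNJ16, CXCR5 and SDC1 hold none of the 3 patterns. Over all 27305 such windows, 5.05% held a kappaB match, 1.66% the octamer and 6.78% the STAT pattern. The shares were 6.86%, 2.88% and 5.97% for 452 windows of genes higher in the sensitive lines and 5.61%, 1.05% and 4.56% for 285 of genes lower. These are letter matches and say nothing of binding.

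KCNJ16, a subunit of an inwardly rectifying potassium channel, had 1852.5 in REC-1 and 475 in SP49, against 2.4 to 6.3 in the insensitive lines (median 3.75). The means were 1164 ± 974 (SD, n = 2) in sensitive and 4.07 ± 1.44 (SD, n = 6) in insensitive lines, with an adjusted limma p of 0.0188. It was near the floor of the array in every insensitive line, so that its fitted log2 difference depended on the pseudocount (7.02 with 3.3, 7.58 with 1 and 5.58 with 16), and both of its probe sets separated the groups. With AFN700 it had 2783 in REC-1 and 710.3 in SP49, against 2.0 to 3.1 in the insensitive lines. Its adjusted p was above the threshold when Z-138 (0.0726), Maver-1 (0.0653) or JVM-13 (0.065) was left out, and without JVM-2 and JVM-13 together (0.0931). It was not tested without REC-1 or SP49, since 1 array then passed the filter.

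The 11 other genes with the widest gap in this direction ran from transcription factors and receptors to matrix and enzyme genes, and none passed the threshold (adjusted p 0.0765 to 0.781). ETV1, an ETS family transcription factor, had 1510.2 in REC-1 and 235 in SP49, against 0.2 to 7.4 in the insensitive lines (median 0.7). Its log2 difference was 7.01 ± 0.86 (SE), with an adjusted p of 0.0765, and all 5 of its probe sets separated the groups. ETV1, LONRF2 and CD8A, at 8.9 or less in every insensitive line, passed the filter on low values through the sensitive lines, as KCNJ16 did. NOTCH3, at 3.9 or less in all insensitive lines but GRANTA-519, also needed a sensitive line to pass. Others of the 11 were also low in most insensitive lines, and whether they passed without the sensitive lines was not checked. The filter thus depended on the group in which such genes were high. The adjusted p-values of the 11 genes are therefore not read here as near the threshold. NOTCH3, a Notch receptor, had 267 in REC-1 and 549.8 in SP49, against 0.6 to 44.2 in the insensitive lines (median 3.4). GRANTA-519 held the highest insensitive value, and the other 5 were at 3.9 or less. CXCR5, the receptor for CXCL13 that brings B cells into follicles, had 916 in REC-1 and 493 in SP49, against 7.6 to 42.5 in the insensitive lines (median 14.2). The log2 difference of CXCR5 was 5.05 ± 0.68 (SE) with an adjusted p of 0.109, and the gene was again separated with AFN700 (856 in REC-1 and 533 in SP49, against 1.0 to 72.6 in the insensitive lines).

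The 12 also held genes of surface, matrix and cytoskeletal proteins. CD8A, a coreceptor chain of cytotoxic T cells, had 83.5 in REC-1 and 180.4 in SP49, against 0.5 to 8.9 in the insensitive lines (median 4.0). TSPAN13, a tetraspanin, had 1057 in REC-1 and 2029.6 in SP49, against 0.5 to 127 in the insensitive lines (median 40.9). FBLN2, an extracellular matrix protein, had 198 in REC-1 and 408 in SP49, against 7.3 to 32.9 in the insensitive lines (median 8.1). All 3 were low in every insensitive line relative to both sensitive lines, with TSPAN13 highest among the insensitive lines in Z-138. MYO10, a myosin of filopodia, had 897 in REC-1 and 209 in SP49, against 0.3 to 20.2 in the insensitive lines (median 9.6). REC-1 was the higher of the 2 sensitive lines for MYO10, and SP49 for TSPAN13, CD8A and FBLN2.

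The remaining genes of this direction are enzymes and less studied transcripts. HS3ST3B1, a heparan sulfate sulfotransferase, had 1497 in REC-1 and 398.5 in SP49, against 0.2 to 38.6 in the insensitive lines (median 4.2). 1 of its 3 probe sets separated the groups. CHI3L2, a chitinase-like secreted protein, had 2289 in REC-1 and 2455 in SP49, against 7.5 to 475 in the insensitive lines (median 170.5). Its insensitive lines were far apart, with JVM-2, JVM-13 and GRANTA-519 at 284 or more and the other 3 at 57.3 or less. WFDC21P, a transcribed pseudogene, had 1462 in REC-1 and 1395 in SP49, against 2.3 to 117 in the insensitive lines (median 10.1). LONRF2, a RING finger protein, had 379.8 in REC-1 and 55.6 in SP49, against 0.1 to 2.4 in the insensitive lines (median 0.7).

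Among the genes lower in the sensitive lines, 2 belong to germinal centre and plasma cells. SDC1, the plasma cell marker CD138, had 7.9 in REC-1 and 37.6 in SP49, against 194 to 1838 in the insensitive lines (median 1175). Its log2 difference was -5.26 ± 0.93 (SE) with an adjusted p of 0.206, and HBL-2 had the lowest value of the insensitive lines (194). GCSAM, a signalling adaptor of germinal centre B cells, had 4.2 in REC-1 and 12.7 in SP49, against 90.1 to 382 in the insensitive lines (median 197). For GCSAM the log2 difference was -4.12 ± 0.64 (SE) with an adjusted p of 0.203. SKAP1, an adaptor in antigen receptor signalling to integrins, had 1.7 in REC-1 and 38.1 in SP49, against 115 to 739 in the insensitive lines (median 484). SKAP1 was close to the floor of the array in REC-1 and low in SP49.

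TMCO1, a calcium channel of the endoplasmic reticulum, was the lower gene with the smallest p among these 12. It had 147 in REC-1 and 500.5 in SP49, against 1597 to 2636 in the insensitive lines (median 1796), a log2 difference of -2.78 ± 0.41 (SE) with an adjusted p of 0.187. It was above the floor in all 8 lines, and all 4 of its probe sets separated the groups. HOOK1, which links cargo to microtubules, had 0.9 in REC-1 and 3.1 in SP49, against 19.2 to 262 in the insensitive lines (median 104). RGL1, which resembles exchange factors of the GTPase RAL, had 20.2 in REC-1 and 27.0 in SP49, against 90.3 to 729 in the insensitive lines (median 177.5). The highest RGL1 values were those of JVM-2 and JVM-13 (729 and 676), and CDC42EP4, an effector of the GTPase CDC42, shared this pattern. CDC42EP4 had 2.8 in REC-1 and 24.8 in SP49, against 76.6 to 934 in the insensitive lines (median 111).

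Core histone genes made up 2 of the 12. H3C3, a histone H3 gene, had 0.7 in REC-1 and 3.2 in SP49, against 28.9 to 443.5 in the insensitive lines (median 220.2). H2AC8, a histone H2A gene, had 7.0 in REC-1 and 0.8 in SP49, against 34.5 to 364 in the insensitive lines (median 106). Both have near-identical copies elsewhere in the histone clusters, so which copy the probe sets measured is uncertain. HPDL, a mitochondrial enzyme, had 9.5 in REC-1 and 12.9 in SP49, against 53.5 to 241 in the insensitive lines (median 101). C12orf57 had 39.4 in REC-1 and 90.3 in SP49, against 289 to 663 in the insensitive lines (median 399.6). LOC105379362, an uncharacterized gene, had 15.1 in REC-1 and 80.3 in SP49, against 304 to 535 in the insensitive lines (median 381). All 24 genes with the widest gaps were separated the same way with AFN700, after quantile normalization and with arrays centred. They were chosen for their wide gaps on the DMSO arrays, which left rescaling of those arrays little room to make them overlap. The AFN700 arrays are of the same lines.

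**Figure D3:**
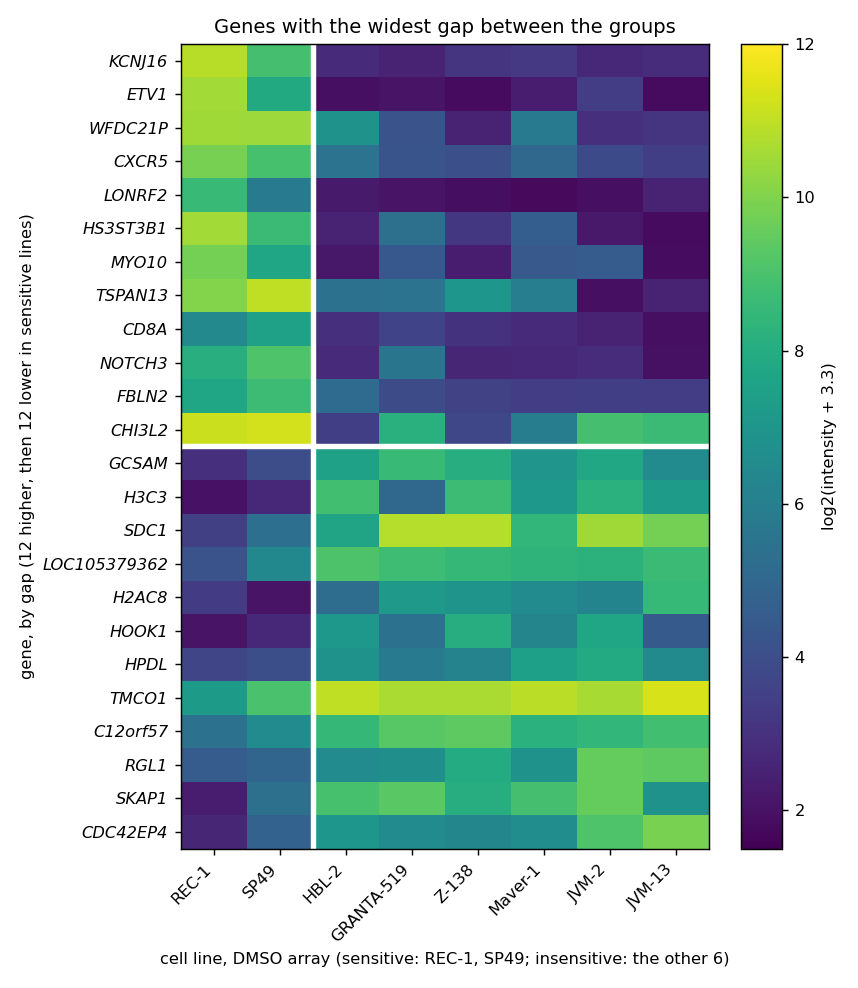
Level of the 12 genes with the widest gap in each direction (rows) on the 8 DMSO arrays (columns, sensitive lines left of the white line); colour is log2(intensity + 3.3). The upper 12 genes are bright in REC-1 and SP49 and the lower 12 are darker there than in the insensitive lines.

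The remaining genes come from 28 lists of B-cell, NF-kB and other pathways. Of 346 different list genes with a group mean above 100, 34 were separated with the sensitive lines higher (9.83%) and 16 with the sensitive lines lower (4.62%), beside 6.22% and 3.68% of all genes. The lists and their members were chosen with earlier results of these data known. The list shares here and below are therefore descriptions, and no excess over all genes is read from them. The ranges of many of these list genes nearly touched. Of 45 list genes named below, 13 had less than a 1.1-fold step between the nearest lines. For CD79A, LCK, BANK1, CBL, INPP5D, MTOR, PDPK1, RASGRP2, MAPK8, NFKBID, LTB, JUN, PAX5, IKZF1, HLA-DPB1, JAK3, RBPJ, CCNA2 and NPM1, as for NOTCH3 and CDC42EP4 above, some probe sets of the gene separated the groups and others did not.

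Kinases and adaptors next to the B-cell receptor leaned higher in the sensitive lines. Of 18 tested genes of the proximal kinases and adaptors, 16 had a positive difference. The median log2 difference was 0.85, against 0.08 for all genes, of which 6345 of 11407 or 55.6% were positive. Of 17 with a group mean above 100, 4 were separated higher and none lower, beside 6.22% and 3.68% of all genes. None passed the adjusted threshold. In the receptor and coreceptor list 6 of 10 were positive (median 0.89), close to the share over all genes, with 1 of 10 at that level separated. CD79A, the signalling chain of the receptor, had 1499 in REC-1 and 1685 in SP49, against 662 to 1261.5 in the insensitive lines (median 923). Its log2 difference was 0.79 ± 0.28 (SE), with an adjusted p of 0.84, and it was separated again with AFN700. VAV1, an exchange factor downstream of SYK, had 566 in REC-1 and 577 in SP49, against 190.4 to 364 in the insensitive lines (median 249). The SRC family kinase LCK had 132 in REC-1 and 201 in SP49, against 15.1 to 111.5 in the insensitive lines (median 39.3). VAV1 and LCK kept their separation on the AFN700 arrays.

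The other 2 proximal genes were separated narrowly. BANK1, a B-cell adaptor, had 678.5 in REC-1 and 1581 in SP49, against 0.2 to 675 in the insensitive lines (median 71.7). REC-1 barely exceeded HBL-2 for BANK1, and JVM-2 and JVM-13 were near 0. CBL, a ubiquitin ligase that limits receptor signalling, had 757 in REC-1 and 967 in SP49, against 206 to 731 in the insensitive lines (median 531). BANK1 and CBL overlapped on the AFN700 arrays and after centring or quantile normalization.

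Genes listed as regulators of the receptor, most of them brakes, leaned higher as well. In that list 14 of 17 tested genes had a positive difference (median 0.78, against 55.6% positive over all genes). Of 14 with a group mean above 100, 4 were separated higher, beside 6.22% of all genes, and all 4 again with AFN700. INPP5D, the phosphatase SHIP1 that removes the lipid product of PI3K, had 925 in REC-1 and 922 in SP49, against 183 to 618 in the insensitive lines (median 441). The Fc receptor-like protein gene FCRL1, which is not an inhibitory receptor, had 1416 in REC-1 and 219 in SP49, against 0.4 to 123 in the insensitive lines (median 9.25). FCRL3 had 1206 in REC-1 and 349 in SP49, against 2.4 to 214 in the insensitive lines (median 34.7). FCRL5 had 858 in REC-1 and 1241 in SP49, against 5.9 to 621 in the insensitive lines (median 88.0). The 3 FCRL genes lie in one cluster on chromosome 1, and JVM-2 and JVM-13 were the 2 lowest lines for each of them.

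The kinase cascades gave separated genes in both directions. MTOR had 239.9 in REC-1 and 213 in SP49, against 59.8 to 178 in the insensitive lines (median 112). PDPK1, which activates AKT, was lower, with 386 in REC-1 and 343 in SP49, against 509 to 926 in the insensitive lines (median 614). In the list of PI3K, AKT and mTOR 7 of 14 were positive, as were 7 of 14 in the list of RAS and MAP kinases, against 55.6% over all genes. Each list had 1 gene separated higher and 1 lower, of 11 and 13 genes with a group mean above 100. These counts stand beside 6.22% and 3.68% of all genes and are not read as a lean of either list. RASGRP2, an exchange factor for RAP1, had 589.5 in REC-1 and 745 in SP49, against 4.1 to 507 in the insensitive lines (median 149.8). MAPK8, the kinase JNK1, was lower by a narrow margin, with 755 in REC-1 and 792 in SP49, against 812 to 2568 in the insensitive lines (median 1149), and overlapped with AFN700.

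Of the classical NF-kB pathway 1 of 14 genes with a group mean above 100 was separated, higher, which is near the 6.22% of all genes. REL, the NF-kB subunit c-Rel of lymphocytes, had 1127 in REC-1 and 1875 in SP49, against 332 to 743 in the insensitive lines (median 629). For REL the log2 difference was 1.40 ± 0.40 (SE) (adjusted p = 0.634), 2 of its 5 probe sets separated the groups, and it was separated again with AFN700 (1214 in REC-1 and 1873 in SP49, against 404.5 to 762 in the insensitive lines). Of 12 inhibitors and feedback genes at that level 1 was separated. NFKBID, an atypical nuclear IkB protein, had 415 in REC-1 and 464 in SP49, against 5.0 to 177 in the insensitive lines (median 95.8). JVM-13 had by far the lowest NFKBID value, and on the AFN700 arrays the groups were again separated.

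Receptors that feed the alternative pathway differed in direction. TNFRSF13C, the BAFF receptor, had 84.3 in REC-1 and 207.5 in SP49, against 18.6 to 47.4 in the insensitive lines (median 31.4). TNFRSF13B, the receptor TACI, had 371 in REC-1 and 402.5 in SP49, against 95.9 to 349 in the insensitive lines (median 148). TNFRSF1B, the second TNF receptor, had 704 in REC-1 and 628 in SP49, against 117 to 556.5 in the insensitive lines (median 225). These 3 were higher in the sensitive lines, TNFRSF13B by a narrow margin over JVM-2, and TNFRSF1B overlapped after quantile normalization or centring. TNFRSF13B overlapped with AFN700. TNFRSF17, the receptor BCMA of plasma cells, was lower, with 51.8 in REC-1 and 381 in SP49, against 402 to 2995 in the insensitive lines (median 1739). SP49 lay just under HBL-2 (402), while the other 5 insensitive lines were at 1319.8 or more. With AFN700 TNFRSF17 overlapped, at 36.0 in REC-1 and 337.5 in SP49, against 207 to 3355 in the insensitive lines.

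Among NF-kB targets, chemokines and cytokines, LTB, CD83 and CXCL16 were separated higher. CD83 was 1 of 20 survival and adhesion targets with a group mean above 100, near the 6.22% of all genes. LTB and CXCL16 were 2 of 9 chemokines and cytokines at that level. LTB, the membrane anchor of lymphotoxin, had 391 in REC-1 and 468 in SP49, against 16.4 to 87.6 in the insensitive lines (median 30.1). The means were 429.5 ± 53.9 (SD, n = 2) in sensitive and 37.5 ± 25.7 (SD, n = 6) in insensitive lines, a log2 difference of 3.59 ± 0.63 (SE) with an adjusted p of 0.206. With AFN700 it had 188 in REC-1 and 194 in SP49, against 6.5 to 95.3 in the insensitive lines, and 1 of its 2 probe sets separated the groups with DMSO. The activation marker CD83 had 1658.5 in REC-1 and 2544 in SP49, against 406 to 1420.2 in the insensitive lines (median 658). CXCL16 had 155.5 in REC-1 and 149.6 in SP49, against 7.9 to 109 in the insensitive lines (median 12.7). With AFN700 CXCL16 overlapped, at 201 in REC-1 and 184.5 in SP49, against 8.0 to 224 in the insensitive lines. The list of survival and adhesion targets as a whole had 8 of 20 positive differences (median -0.22), and without JVM-2 and JVM-13 10 of 19 (median 0.37).

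Of 12 early response genes of antigen receptors with a group mean above 100, 2 were separated higher, beside 6.22% of all genes. In that list 9 of 15 differences were positive, close to the 55.6% over all genes. CD69, a receptor that keeps lymphocytes in tissue, had 1494 in REC-1 and 1447 in SP49, against 149.9 to 1202 in the insensitive lines (median 687). JUN had 117 in REC-1 and 126 in SP49, against 11.5 to 94.5 in the insensitive lines (median 52.0). JUN overlapped after quantile normalization, centring and AFN700.

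**Figure D4:**
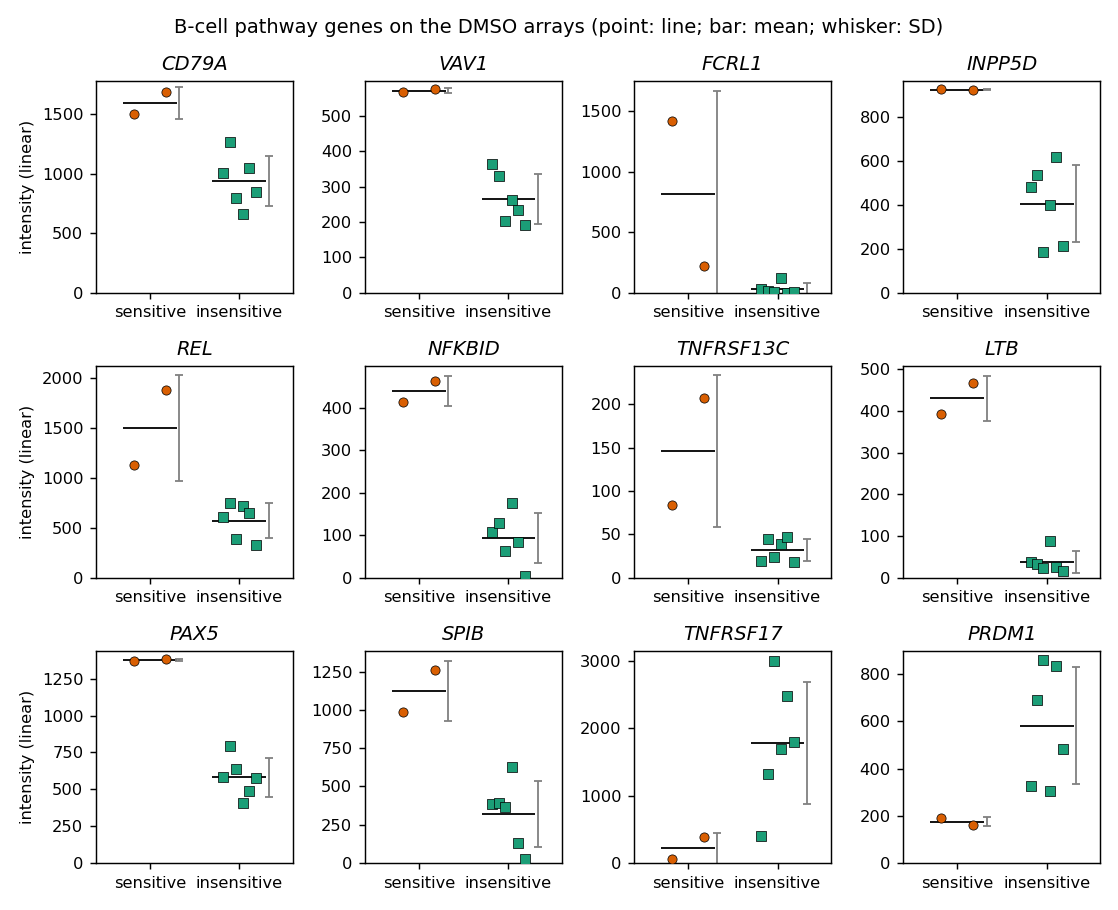
Linear intensity of 12 receptor, NF-kB and B-cell differentiation genes on the DMSO arrays. Each point is 1 line (circles, 2 sensitive; squares, 6 insensitive), the horizontal bar is the group mean and the whisker the SD; TNFRSF17 and PRDM1 lie lower in the sensitive lines and the other 10 genes higher.

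A panel of 24 receptor, NF-kB and lymphoma genes was described whatever its values. Of these 21 had a probe set of their own, the others are not reported here, and 1 gene, CD79A, was separated. BTK, the target of ibrutinib, had 1182 in REC-1 and 1524 in SP49, against 188.5 to 1248 in the insensitive lines (median 676), and Maver-1 (1248) lay between the sensitive lines. SYK had 1163 in REC-1 and 1653.5 in SP49, against 93.7 to 1168 in the insensitive lines (median 828), with Maver-1 just above REC-1. LYN had 2746 in REC-1 and 3273.5 in SP49, against 1062 to 3578 in the insensitive lines (median 1851), and only JVM-13 (3578) was above the sensitive lines. CD79B had 1444 in REC-1 and 1656 in SP49, against 164 to 1853 in the insensitive lines (median 713), with HBL-2 highest of all 8 lines.

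Downstream of the receptor the panel overlapped as well. PLCG2 had 1026 in REC-1 and 1835 in SP49, against 401 to 1143 in the insensitive lines (median 996). PRKCB, the protein kinase C of the pathway, had 1919 in REC-1 and 1894 in SP49, against 164 to 2315 in the insensitive lines (median 1744), the lowest being Z-138. BLK, a SRC family kinase, had 86.9 in REC-1 and 219.6 in SP49, against 27.5 to 147 in the insensitive lines (median 68.5). The adaptor BCL10 had 569 in REC-1 and 645 in SP49, against 632.5 to 1399.9 in the insensitive lines (median 794), and the protease MALT1 had 674 in REC-1 and 395 in SP49, against 462 to 987 in the insensitive lines (median 693). None of these 5 had an unadjusted limma p under 0.05.

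For the alternative pathway, TRAF3, which keeps the kinase MAP3K14 unstable, had 355 in REC-1 and 179.9 in SP49, against 0.4 to 410.4 in the insensitive lines (median 253), and the low value was that of Maver-1. MAP3K14 had 27.9 in REC-1 and 57.4 in SP49, against 44.6 to 95.1 in the insensitive lines (median 68.5). NFKB2 had 101 in REC-1 and 112 in SP49, against 77.9 to 297.5 in the insensitive lines (median 197). The sensitive lines lay within the insensitive range for TRAF3 and NFKB2, and REC-1 lay below it for MAP3K14. BIRC2, a ubiquitin ligase of the TRAF3 complex, had 816 in REC-1 and 513 in SP49, against 224 to 533 in the insensitive lines (median 329.9), and JVM-2 was the line that overlapped. RELB had 53.2 in REC-1 and 51.6 in SP49, against 19.2 to 73.1 in the insensitive lines (median 51.5).

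The feedback genes were within the insensitive range too. NFKBIA had 544 in REC-1 and 517 in SP49, against 229 to 934 in the insensitive lines (median 488). TNFAIP3, the enzyme A20, had 468 in REC-1 and 384 in SP49, against 49.6 to 1343 in the insensitive lines (median 965), with the lowest value in HBL-2. The cyclin gene CCND2 had 4.9 in REC-1 and 151 in SP49, against 2.6 to 4042 in the insensitive lines (median 1947), and 4 insensitive lines (HBL-2, GRANTA-519, JVM-2 and JVM-13) were at 1258 or more. BCL2, the survival protein, had 1317 in REC-1 and 885 in SP49, against 759 to 3032 in the insensitive lines (median 2112), and both JVM lines were within or below the sensitive values.

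**Figure D5:**
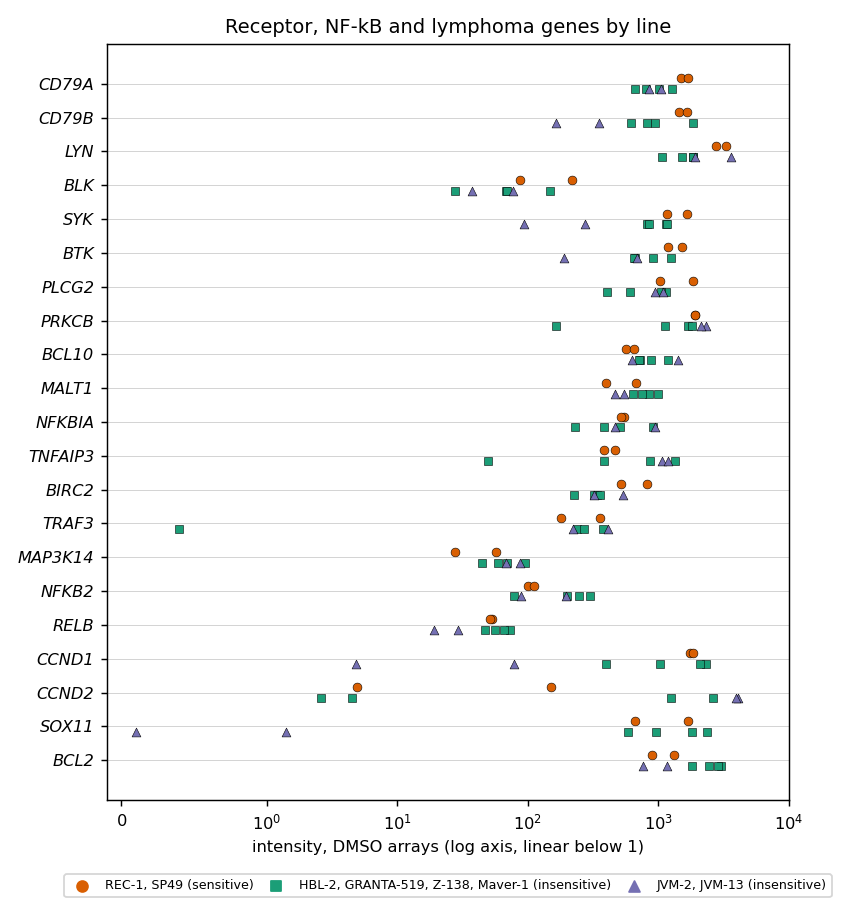
Intensity of 21 panel genes on the DMSO arrays, log axis (linear below 1), 1 point per line: circles for the 2 sensitive lines, squares for HBL-2, GRANTA-519, Z-138 and Maver-1, triangles for JVM-2 and JVM-13. The 2 groups overlap for every gene but CD79A.

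Of the B-cell identity factors 12 of 17 differences were positive (median 0.80, and 0.42 without JVM-2 and JVM-13, against 55.6% positive over all genes). Of 17 with a group mean above 100, 3 were separated higher, beside 6.22% of all genes, 1 of them again with AFN700. In the list of B-cell surface markers 9 of 15 were positive (median 0.16) and none was separated. PAX5, the factor that fixes B-cell identity, had 1374 in REC-1 and 1385 in SP49, against 409.9 to 794 in the insensitive lines (median 578). The groups differed by 1.27 ± 0.31 (SE) on the log2 scale for PAX5 (adjusted p = 0.493). With AFN700 PAX5 overlapped, at 589 in REC-1 and 1184 in SP49, against 289 to 702.5 in the insensitive lines. SPIB, an ETS factor of B cells, had 988 in REC-1 and 1263 in SP49, against 25.9 to 625 in the insensitive lines (median 375), and was separated again. IKZF1, the factor Ikaros, had 2549.7 in REC-1 and 2641 in SP49, against 983 to 2529 in the insensitive lines (median 2257), a separation lost with centring and with AFN700.

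In the list of germinal centre and plasma cell genes 5 of 16 differences were positive (median -0.55, against 55.6% positive over all genes). Of 14 genes with a group mean above 100, none was separated higher and 4 lower, beside 6.22% and 3.68% of all genes. The 4 were GCSAM, SDC1 and TNFRSF17, given above, and PRDM1, and all but TNFRSF17 were separated again with AFN700. PRDM1, the factor BLIMP1 that drives plasma cell differentiation and represses PAX5, had 189 in REC-1 and 161 in SP49, against 304 to 862 in the insensitive lines (median 585). Its log2 difference was -1.60 ± 0.49 (SE) (adjusted p = 0.734), and 1 of its 3 probe sets separated the groups. Without JVM-2 and JVM-13 the list median was -0.63, with 3 of 15 positive.

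Homing receptors were mixed. S1PR1, which guides lymphocytes out of tissue, had 1147 in REC-1 and 801 in SP49, against 48.3 to 693 in the insensitive lines (median 268). P2RY8, a receptor that holds B cells in germinal centres, was lower, with 1033 in REC-1 and 1125 in SP49, against 1606 to 2491 in the insensitive lines (median 1746). P2RY8 overlapped with AFN700, and S1PR1 did not.

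Sensing and cytokine pathways gave several genes higher in the sensitive lines. In the list of Toll-like receptors and MYD88 13 of 15 differences were positive (median 0.89, against 55.6% positive over all genes). TLR9, the DNA sensor of B cells, had 112 in REC-1 and 195 in SP49, against 4.6 to 58.5 in the insensitive lines (median 36.2). MYD88, the adaptor of these receptors, had 1056 in REC-1 and 1647 in SP49, against 716 to 894 in the insensitive lines (median 766). TLR10 had 807.4 in REC-1 and 897 in SP49, against 92.3 to 807.3 in the insensitive lines (median 177), a minimal step over GRANTA-519. The TLR10 ranges overlapped after quantile normalization and after centring each array on its median. MYD88 overlapped with AFN700 and after centring. IL10RA, a chain of the interleukin 10 receptor, had 728 in REC-1 and 609.8 in SP49, against 25.6 to 203 in the insensitive lines (median 110.0), and was again separated with AFN700. JAK3, the kinase of the common gamma chain receptors, was lower, with 145 in REC-1 and 172 in SP49, against 225 to 694 in the insensitive lines (median 406), and overlapped with AFN700 (225 in REC-1 and 114 in SP49, against 121 to 701 in the insensitive lines). The RNA sensor IFIH1 was lower as well, with 208 in REC-1 and 228 in SP49, against 253 to 859.7 in the insensitive lines (median 593.5). It was the 1 separated gene of 16 in the interferon response list with a group mean above 100, beside 3.68% of all genes separated lower. That list did not lean lower, with 9 of 18 differences positive (median 0.19), and 11 of 15 without JVM-2 and JVM-13 (median 1.05).

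The Notch list had the highest median of the 28 lists (1.30, with 11 of 13 differences positive, against 55.6% over all genes), and it was 1.31 without JVM-2 and JVM-13. Besides NOTCH3, DTX1, a Notch target and regulator, had 1896 in REC-1 and 1868.5 in SP49, against 5.8 to 1192 in the insensitive lines (median 622). DTX1 was 5.8 in JVM-2 and 6.1 in JVM-13. RBPJ, the DNA-binding partner of Notch, was lower, with 1191 in REC-1 and 874 in SP49, against 1347 to 3069.5 in the insensitive lines (median 1497). RBPJ was highest in JVM-13 and overlapped with AFN700.

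In the cell cycle list 20 of 25 differences were positive (median 0.30, against 55.6% positive over all genes). Of its 25 genes 1 was separated, higher, beside 6.22% of all genes. The median was 0.15 with arrays centred, and 0.15 without JVM-2 and JVM-13, where 17 of 25 were positive. The cyclin gene CCNA2 had 2167 in REC-1 and 2348.5 in SP49, against 1172.5 to 2014 in the insensitive lines (median 1731). In the list of MYC targets and ribosome biogenesis 4 of 15 genes with a group mean above 100 were separated lower, beside 3.68% of all genes. Their log2 differences were -0.22 to -0.40. LDHA, a glycolytic enzyme, had 2893 in REC-1 and 3355 in SP49, against 3591 to 4626 in the insensitive lines (median 3869). FBL, a nucleolar RNA methyltransferase, had 1826 in REC-1 and 1486 in SP49, against 1872 to 3009 in the insensitive lines (median 2016). The nucleolar protein NPM1 had 4871 in REC-1 and 5379 in SP49, against 5456 to 8122 in the insensitive lines (median 5655). WDR43, a ribosome biogenesis factor, had 1461 in REC-1 and 1559 in SP49, against 1578 to 2370.2 in the insensitive lines (median 1849.9). The difference of NPM1 turned to 0.04 after quantile normalization, under which FBL, WDR43 and PMAIP1 overlapped too. PMAIP1, the death-promoting BCL2 family member NOXA, had 1349 in REC-1 and 1753 in SP49, against 1930.1 to 2884 in the insensitive lines (median 2270.3). LDHA, FBL, NPM1, CCNA2 and PMAIP1 overlapped with AFN700.

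Antigen presentation set REC-1 apart from SP49. HLA-DRA, a chain of the class II molecule HLA-DR, had 5.0 in REC-1 and 3034 in SP49, against 2438 to 4701 in the insensitive lines. HLA-DPA1 had 2.2 in REC-1 and 2952.5 in SP49, against 1051 to 3974. HLA-DPB1 had 5.2 in REC-1 and 1753 in SP49, against 1800.1 to 2968.5 in the insensitive lines (median 1847.5), so its separation rested on a small step for SP49 and a large one for REC-1. HLA-DPB1 overlapped with AFN700 and under both scalings. The class II activator CIITA was 228 in REC-1 and 169 in SP49, against 34.6 to 567, and REC-1 lay inside the range of the other lines. Over the class II list REC-1 was the lowest of all 8 lines for 5 of 13 genes. JVM-13 was lower than REC-1 for HLA-DMA (85.0 against 315.5) and HLA-DMB (10.4 against 33.5), among others. In the class I list REC-1 was the lowest for 9 of 14 genes, among them HLA-E (6.9 in REC-1 and 961 in SP49, against 809.8 to 1792) and HLA-B (425.5 in REC-1 and 3154 in SP49, against 2563 to 3839). The share of all genes with REC-1 lowest was not counted. In the class I list 1 of 14 differences was positive (median -0.81), against 55.6% over all genes, and SP49 lay inside the insensitive range for HLA-B and HLA-E.

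Markers of other cell types were measured for the same arrays. The 8 T cell markers summed to 471 in REC-1 and 302.5 in SP49, against 31.3 to 654 in the insensitive lines, and CD8A was the 1 of them that was separated. CD3D was 141 in REC-1 and 12.1 in SP49, against 0.7 to 4.8 in the insensitive lines. CD3E was 89.1 in REC-1 and 1.8 in SP49, against 0.2 to 4.9, and CD3G 61.4 and 3.7, against 1.9 to 106.1 (highest in Z-138). CD28 was 79.4 in REC-1 and 62.2 in SP49, against 2.3 to 594.0, and the 594.0 of GRANTA-519 made up most of the highest sum. CD7 was between 9.5 and 35.4, CD2 at 6.3 or less and CD4 at 9.1 or less in all 8 lines. The sums of 7 myeloid markers were 20.2 and 124 in sensitive lines, against 34.3 to 277, and those of 8 fibroblast and epithelial markers 131.5 and 123, against 39.8 to 681. In such bulk samples a few cells rich in a transcript and many cells poor in it cannot be told apart. CD14, MPO and S100A8 were at 4.4 or less in every line.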

How the data were processed

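RNA of 8 cell lines was measured on 16 one-colour arrays, 8 of them with DMSO. The authors deposited linear intensities per probe set, made with MAS5 per the submitters' processing notes, whose version is not given in the sources used here. Each deposited array was found to be scaled to a mean intensity of 150 after 2% was trimmed from each end. No detection calls were used, which leaves low intensities and background undistinguished, and the number of arrays limits precision.

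Of 54675 probe sets, 41097 were listed with 1 gene, 1801 with several and 11777 not listed; the last 2 kinds and 62 control probe sets were left out. Symbols were updated by Entrez number with the RefSeq GRCh38.p14 table (19735 of 19775 genes matched), and the probe set with the highest mean over 16 arrays stood for a gene. Of 39 named separated genes with several probe sets, every one agreed in 15. Tests used log2(intensity + 3.3), with 3.3 the 25th percentile of all values. Differences understate those of low genes. Genes above their array's 60th percentile on at least 2 DMSO arrays were tested (11407) with limma 3.58.1 in R 4.3.3 (lmFit, eBayes with trend, 6 residual degrees of freedom) and Benjamini-Hochberg adjustment; SE is the moderated standard error. P-values measure the spread between lines, each with a single array, and the labels do not tell of repeat cultures. Array properties were compared by exact permutation over 28 splits.

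Named genes were the 12 with the widest gap per direction, up to 4 separated genes per list and direction, genes past the adjusted threshold and a panel of 24. The members and lists were chosen with earlier results of these data known. Alternatives were other pseudocounts, scalings, filters, probe set rules, thresholds, sets of insensitive lines, and leaving out each line; leaving out JVM-2 with JVM-13, and JVM-13 with Maver-1, was added after seeing the data. Figures used matplotlib 3.10.9. The treated JVM-13 array is titled AFN700 while its other fields read AFN701, and it was kept.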

Additional observations from a re-analysis of the deposited data

Results flagged for a closer look

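Single lines lay far from the other insensitive lines for 9 of 89 genes examined, by a test on the gap to the nearest line over the whole range, which chance passes in about 1 of 20 groups. On the DMSO arrays JVM-13 was high for RBPJ (3069.5) and NPM1 (8122), and low for NFKBID (5.0) and BTK (188.5). JVM-2 was high for ETV1 (7.4), a value close to the floor of the array. GRANTA-519 was high for NOTCH3 (44.2) and HBL-2 for FBLN2 (32.9), both below the 2 sensitive lines. Z-138 was low for PRKCB (164), and Maver-1 was low for TRAF3 (0.4). Maver-1 also stood apart in the actin 3'/5' ratio (10.326) and the GAPDH ratio (3.958), and JVM-13 in its median log2 level (7.541).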

How the results depend on the processing

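The count of genes called by limma was 1 as reported. It was 3 with a pseudocount of 16, 5 with no filter, 10 without the trend, 2 at an adjusted p under 0.10 and 31 with all 16 arrays and the line as a random block, 27 of them separated with DMSO. It was 0 with the filter on at least 6 arrays, the mean of all probe sets, the insensitive lines limited to GRANTA-519, JVM-2 and JVM-13, or without JVM-13 and Maver-1, and 0 to 23 when each line was left out. The 23 came without SP49 and the 0 without REC-1, Z-138, Maver-1 or JVM-13. Where the count was 0 by limma, 281 to 1018 genes had an unadjusted p under 0.05. KCNJ16 had adjusted limma p from 7.62e-06 to 0.123, the lowest from the fit to all 16 arrays, which counts both arrays of a line.

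Separated genes numbered 36 higher and 23 lower at least 2-fold apart, 1207 and 1052 with HBL-2, Z-138 and Maver-1 alone, 1592 and 1205 with GRANTA-519, JVM-2 and JVM-13 alone, 1006 and 755 without JVM-13 and Maver-1, and 906 and 770 without JVM-2 and JVM-13. Leaving out each line gave 650 to 1617 higher and 405 to 1251 lower, the highest without SP49. Fewer lines leave fewer values to overlap. On both sets of arrays, the counts were 416 and 277, then 403 and 332, for the 2 added settings, and 276 to 839 and 144 to 735 when each line was left out (highest without SP49), beside 230 and 118 as reported. The actin ratio difference ran from -1.0422 to 1.4345, the GAPDH difference from 0.1232 to 0.9329.

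Of 89 named genes, 9 turned direction in some setting. NPM1 was 0.036 after quantile normalization. BCL10 was 0.22 and CCND1 -1.444 as the mean of all probe sets. With GRANTA-519, JVM-2 and JVM-13 alone, PRKCB was -0.122, TRAF3 -0.195 and NFKBIA -0.47; with HBL-2, Z-138 and Maver-1 alone, RELB was -0.084, TNFAIP3 0.713 and SOX11 -0.044. Without JVM-2 and JVM-13, RELB was -0.177, TNFAIP3 0.121 and SOX11 -0.226; without JVM-13 and Maver-1, TRAF3 was -0.09 and NFKBIA -0.083. NFKBIA was -0.034 after quantile normalization and -0.095 with arrays centred. Leaving out each line gave -0.21 to 1.329 for TRAF3 and -0.175 to 0.228 for NFKBIA. The cause was not tested. No paired analysis was possible because the groups are different cell lines and their replicate numbers only name them.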

Other observations

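Genes outside the lists and the widest gaps are given here; they were chosen after their values were seen. When all 16 arrays entered 1 fit with the line as a random block, limma called 31 of 12305 genes, 22 higher and 9 lower in the sensitive lines. The AFN700 arrays add no lines, and the fit shares 1 correlation between the arrays of a line over all genes. Its 12 residual degrees of freedom, against 6 in the fit to the 8 DMSO arrays, count both arrays of a line. The p-values of this fit therefore overstate the precision between lines. ABCB1, the drug efflux pump MDR1, was among the higher ones, with 1625.6 in REC-1 and 135 in SP49, against 5.7 to 58.7 in the insensitive lines (log2 difference 4.37, adjusted p = 0.0463 in that fit). GRAP, an adaptor related to GRB2, had 704.5 in REC-1 and 559 in SP49, against 27.1 to 139 (adjusted p = 0.0222). P2RX1, an ATP-gated ion channel, had 382 in REC-1 and 103 in SP49, against 5.2 to 27.4 (adjusted p = 0.0222). On the lower side CD59, which shields cells from complement, had 507 in REC-1 and 367.5 in SP49, against 1113 to 3536 (log2 difference -2.15, adjusted p = 0.012). None of these 4 passed the threshold on the 8 DMSO arrays alone.

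REC-1 alone, without SP49, was lower than the 6 insensitive lines for several HLA genes, with log2 differences of -8.66 for HLA-DRA, -8.94 for HLA-DPA1 and -6.94 for HLA-E. For GSTP1, a glutathione transferase, the log2 difference was -7.98. With 1 sensitive line its spread is assumed to be that of the others, so only the size of these differences is given. HLA-DQA1, a class II chain, was the gene called when JVM-2 was left out with a value lower in the sensitive lines (-7.99, adjusted p = 0.000622), and again without JVM-2 and JVM-13 (-8.00, adjusted p = 0.00383).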
